A study of Mus musculus with 4 samples.

Results

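Wnt pathway genes were examined for binding of Sp9, an SP/KLF zinc finger protein of ganglionic eminence cells and immature striatal neurons that regulates transcription. They were taken as all mouse protein-coding genes whose symbol names a Wnt ligand, a Frizzled receptor, the co-receptors Lrp5 and Lrp6, an R-spondin or one of its receptors Lgr4 to Lgr6, a Dkk or Sfrp inhibitor, a Dvl or Axin protein, Apc, Ctnnb1, a Tcf7 factor or Lef1. This gave 57 genes of 21900. Wild-type CD1 mouse embryos gave the basal ganglia, an earlier sample from embryonic day 13.5 (E13.5) and a later one from embryonic day 16.5 (E16.5). Sp9-bound DNA was isolated by chromatin immunoprecipitation and sequenced (ChIP-seq). The antibody was a rabbit antibody to Sp9. Each stage had 1 ChIP library, and 1 input library without antibody that entered only through the authors' peak calling. No genotype or treatment differed between the groups, and the labels do not say whether tissue of several embryos was pooled.

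The deposited lists name 5847 peaks at E13.5 and 6022 at the later stage. For each gene they give the distance of each assigned peak from the transcription start site (TSS) in base pairs on the mm9 build. Distances upstream of the TSS run against the direction of transcription, and distances downstream run along it. The lists hold no read totals, peak heights or coordinates, so depth was unknown and peak strength could not be compared. With 1 library per stage no test between the stages was possible, and every difference between the lists is a difference between 2 libraries. A gene without a listed peak had none that both passed the authors' threshold and was assigned to it. In tissue of mixed cell types, fewer cells with a bound site and weaker binding in each cell cannot be told apart. The lists hold binding sites and no expression values, so the labelled tissue could not be checked against its marker genes.

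Wnt ligands are secreted lipid-modified proteins that bind Frizzled receptors together with the co-receptors Lrp5 and Lrp6. In the canonical branch this stops the complex of Axin and Apc from marking beta-catenin, the product of Ctnnb1, for destruction, and beta-catenin then enters the nucleus and acts with Tcf7 factors and Lef1. In the developing forebrain the pathway is known for patterning the dorsal telencephalon and for controlling the division of neural progenitors.

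The Sp9 peaks that lay closest to Wnt pathway genes were at the promoters of 3 Frizzled receptors, the co-receptor Lrp6, the ligand Wnt7a and 3 intracellular transducers. A promoter peak was defined as one within 1 kb of the TSS. At E13.5 these were found at 3 genes, the receptors Fzd2 and Fzd7 and the ligand Wnt7a. At E16.5 they were found at 7 genes, Fzd2, Fzd7, Fzd5, Lrp6, Apc, Ctnnb1 and Dvl3. The sequences of 5 of these promoters, those of Fzd7, Ctnnb1, Fzd5, Wnt7a and Dvl3, are given here from RefSeq because SP/KLF proteins are known to bind GC boxes. Each is the 250 bases upstream of the RefSeq start on the strand of the gene, in lower case, with every GC box (GGGCGG on either strand) in capitals. On GRCm38.p6 they lie at chr1:59481897-59482146 (plus strand), chr9:120933150-120933399 (plus), chr1:64737751-64738000 (minus), chr6:91411354-91411603 (minus) and chr16:20516736-20516985 (plus). All 5 lie upstream of the start used, the most upstream one in the promoter table. The Dvl3 gene model of the gene table begins 37 bases before the end of the stretch shown. The peak distances are on mm9, whose TSS need not be the RefSeq start. The promoter peaks of Ctnnb1, Fzd5 and Dvl3 and that of Fzd7 at E16.5 were listed downstream of the TSS, at 44, 62, 113 and 2 bp. Their positions may therefore fall outside the bases shown. No sequence was available for the promoters of Fzd2, Lrp6 and Apc.
Fzd7: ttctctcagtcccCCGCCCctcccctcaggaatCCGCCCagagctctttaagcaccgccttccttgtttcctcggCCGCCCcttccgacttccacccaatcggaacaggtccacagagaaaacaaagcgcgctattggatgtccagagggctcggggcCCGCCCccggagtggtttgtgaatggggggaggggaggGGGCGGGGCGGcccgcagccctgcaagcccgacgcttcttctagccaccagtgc
Ctnnb1: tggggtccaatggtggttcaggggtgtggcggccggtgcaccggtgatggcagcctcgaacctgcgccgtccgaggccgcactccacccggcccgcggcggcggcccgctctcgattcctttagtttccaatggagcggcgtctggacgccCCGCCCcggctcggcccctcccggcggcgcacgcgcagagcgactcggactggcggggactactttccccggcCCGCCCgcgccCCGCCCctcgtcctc
Fzd5: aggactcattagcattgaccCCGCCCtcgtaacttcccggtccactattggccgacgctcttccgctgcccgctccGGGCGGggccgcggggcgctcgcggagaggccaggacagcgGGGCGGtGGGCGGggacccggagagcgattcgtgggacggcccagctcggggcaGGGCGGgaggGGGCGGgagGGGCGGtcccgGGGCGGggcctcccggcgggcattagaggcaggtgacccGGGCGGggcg
Wnt7a: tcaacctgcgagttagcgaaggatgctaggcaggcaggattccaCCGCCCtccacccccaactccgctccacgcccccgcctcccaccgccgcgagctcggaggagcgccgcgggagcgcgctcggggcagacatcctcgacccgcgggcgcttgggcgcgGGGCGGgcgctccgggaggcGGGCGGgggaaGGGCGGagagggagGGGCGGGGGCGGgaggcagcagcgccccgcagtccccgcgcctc
Dvl3: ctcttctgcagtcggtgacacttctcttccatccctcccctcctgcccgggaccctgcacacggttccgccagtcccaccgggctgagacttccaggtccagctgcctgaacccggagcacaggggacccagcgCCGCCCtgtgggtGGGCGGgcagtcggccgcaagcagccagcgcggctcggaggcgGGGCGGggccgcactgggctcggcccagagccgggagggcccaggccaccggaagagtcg

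The number of GC boxes, overlapping matches included, was 6 for Fzd7, 3 for Ctnnb1, 9 for Fzd5, 6 for Wnt7a and 3 for Dvl3. GC boxes stood on both strands in the promoters of Fzd7, Fzd5, Wnt7a and Dvl3, and the 3 boxes of Ctnnb1 all read CCGCCC. Over the promoter table, with the most upstream start of each gene, 42.7% of 17492 protein-coding genes held at least 1 GC box in these 250 bases. Of the Wnt pathway genes in the table that had no promoter peak, 25 of 33 (75.8%) held one. Among all genes with an Sp9 promoter peak at either stage the share was 73.9% of 1946. The CACCC box (CACCC on either strand), another element that SP/KLF proteins are known to bind, was found in 4 of the 5 shown promoters and in 53.3% of all promoters of the table. It was in 22 of the 33 Wnt pathway promoters without a peak (66.7%) and in 58.3% of all genes with an Sp9 promoter peak. Fzd5 was the promoter without a CACCC match. The matches are letters in a window and were not tested as binding sites.

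In all, 22 of the 57 Wnt pathway genes (38.6%, 95% Wilson interval 27.1 to 51.6) had an assigned Sp9 peak at any distance at E13.5, against 20.7% of all 21900 protein-coding genes. At E16.5, 23 genes (40.4%, 28.6 to 53.3) had one, against 23.6%. Both shares stood above those of all genes, and both intervals lay above them. Peaks were found at both stages for 18 genes, against 16.3% of all genes. Another 4 genes had a peak only in the earlier list, against 4.39% of all genes, and 5 only in the later list, against 7.25%, while 30 had none in either. The intervals cover counting error over genes only, and genes are not replicates.

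Nearer to the TSS the difference from all genes was smaller in percentage points. Within 50 kb, 11 Wnt pathway genes (19.3%, 11.1 to 31.3) had a peak at E13.5, against 10.8% of all genes. At E16.5, 12 genes (21.1%, 12.5 to 33.3) had one, against 15.1%. The E13.5 interval within 50 kb lay above the share of all genes, and the E16.5 interval included it. The 7 genes with such a peak in both lists, against 7.79% of all genes, were Wnt7a, Fzd2, Fzd7, Fzd8, Lgr4, Sfrp5 and Ctnnb1. At promoters the counts of 3 and 7 genes were 5.26% (1.8 to 14.4) and 12.3% (6.1 to 23.2), against 4.93% and 9.42% of all genes. Those promoter shares were near the shares over all genes. Fzd2 and Fzd7 were the 2 Wnt pathway genes with a promoter peak in both lists, against 3.40% of all genes. A peak farther than 5 kb upstream or 1 kb downstream is assigned only to the genes that flank it, so a gene with distant neighbours can collect peaks from a longer stretch. The basal window reaches 5 kb upstream and 1 kb downstream and has the same width for every gene. It held peaks of 4 Wnt pathway genes (7.02%, 2.8 to 16.7) at E13.5 and of 9 (15.8%, 8.5 to 27.4) at the later stage. The shares of all genes were 5.51% and 10.2%, and both intervals included them. Counting only genes that were the nearest listed TSS to a peak, 14 (24.6%, 15.2 to 37.1) and 16 (28.1%, 18.1 to 40.8) Wnt pathway genes had one. The shares of all genes were 14.7% and 17.4%, and both intervals lay above them.

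**Figure D1:**
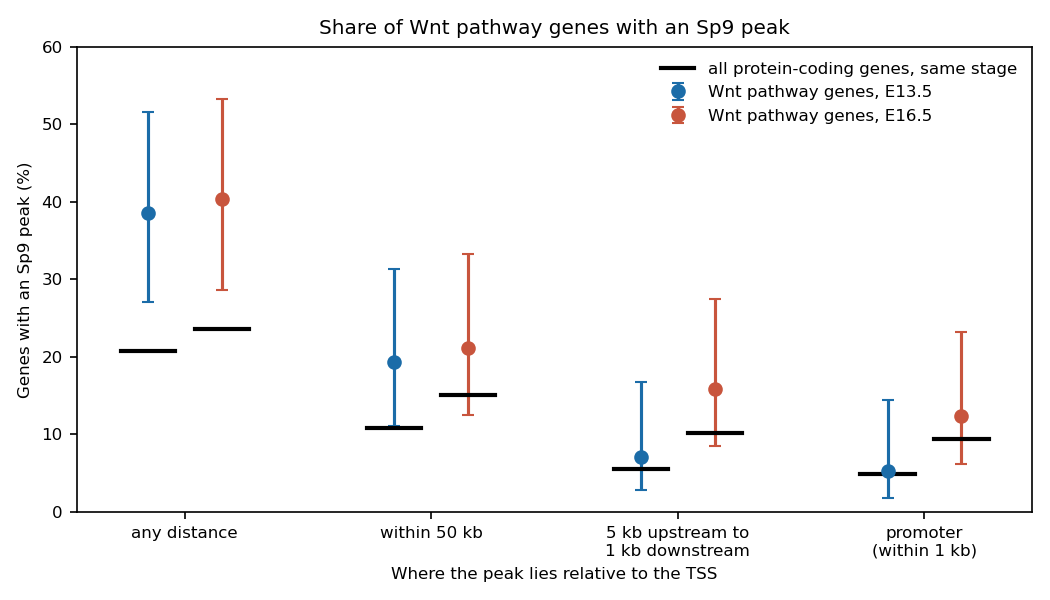
Share of the 57 Wnt pathway genes with an Sp9 peak (y axis, percent) for 4 definitions of position (x axis), at E13.5 (blue) and E16.5 (red); bars are 95% Wilson intervals over genes and black lines are the share of all 21900 protein-coding genes at the same stage. The points lie farthest above the lines at any distance (38.6% and 40.4% against 20.7% and 23.6%), and close to them at the promoter.

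Each list held 43 peaks assigned to Wnt pathway genes, and none of them was assigned to a pair of these genes. Most lay far from the TSS. At E13.5, 32 of the 43 (74.4%) were 50 to 500 kb away, against 54.9% of all pairs of a gene and a peak in that list. At E16.5 there were 28 (65.1%), against 46.7%. All 9 peaks of Tcf7l2 and all 6 of Fzd1 at E13.5 were among them. So were all 7 of Tcf7l2 and all 6 of Fzd1 at E16.5, and these shares lean heavily on both genes. Beyond 500 kb the share of the Wnt pathway genes was instead the lower one. No peak of the Wnt pathway genes lay there at E13.5, against 14.8% of all pairs, and 1 (2.33%) did at E16.5, against 11.1%. The median distance was 119.9 kb in the earlier list and 109.9 kb in the later one, while over all pairs it was 132.4 and 80.3 kb. Another gene was also assigned to 39 of the 43 peaks at E13.5 and to 35 at the later stage. For 17 of the 43 peaks in each list that other gene's TSS was the nearer.

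A peak was called matched when a gene assigned to it had a peak in the other list at a TSS distance within 200 bp. That gene could be the Wnt pathway gene or the other gene assigned to the peak. Matched peaks formed 28 pairs under the Wnt pathway genes, which differed by 0 to 159 bp with a median of 34.5 bp. Over all 3383 matched pairs of the lists the median difference was 38.0 bp. The 28 peaks were 65.1% of the 43 at E13.5 (50.2 to 77.6), against 57.9% of all peaks. At E16.5, 29 of 43 (67.4%, 52.5 to 79.5) were matched, against 56.2% of all peaks. The additional one, at Dvl2, was matched through its neighbour Phf23. Both intervals included the share of all peaks. They treat peaks of one gene as independent, although Fzd1 and Tcf7l2 held 6 of the 28 pairs each. Of the 18 genes with peaks at both stages, 16 had at least 1 matched pair, and Apc and Lrp6 had none. The same share over all genes with peaks at both stages was not computed, so this count has no comparison.

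**Figure D2:**
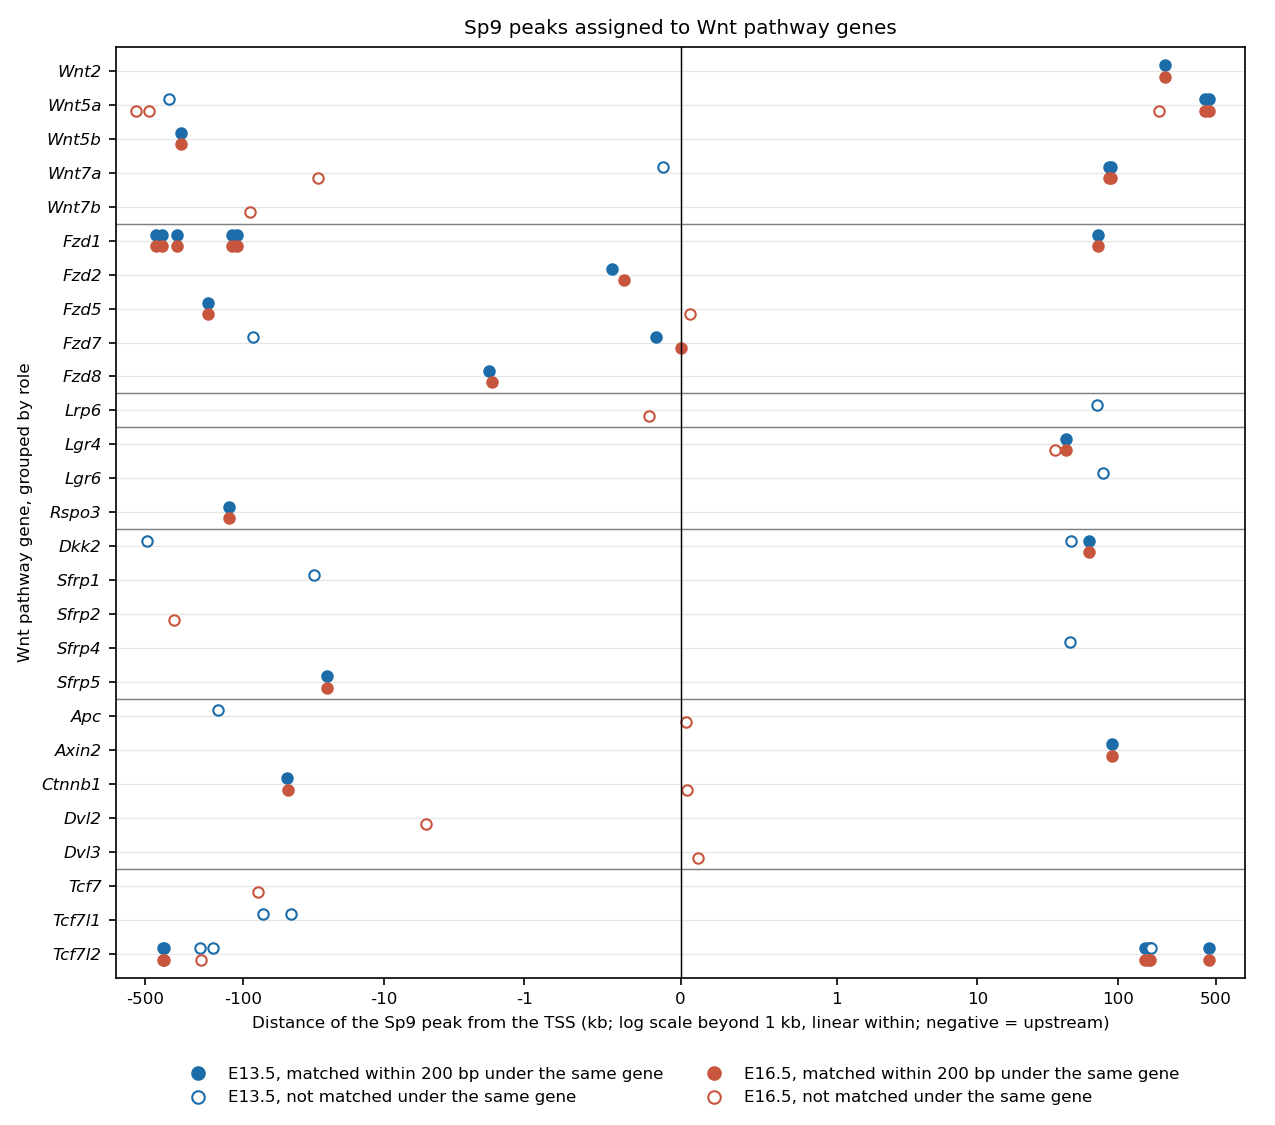
Distance of each assigned Sp9 peak from the TSS (x axis, kb, logarithmic beyond 1 kb and linear within) for the 27 Wnt pathway genes with a peak at either stage (rows, grouped by role), with E13.5 in blue and E16.5 in red. Filled points are matched within 200 bp under the same gene; the filled pairs of Fzd1 and Tcf7l2 lie far from the TSS, and the open red points at 0 to 1 kb are E16.5 promoter peaks of Fzd5, Apc, Ctnnb1 and Dvl3.

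Of the 19 Wnt ligand genes, 4 had a peak at E13.5 and 5 at the later stage, near the 20.7% and 23.6% of all genes. Only Wnt7a had one within 50 kb. Wnt7a encodes a ligand that acts on neural progenitors and on synapse formation. In the E13.5 list it had a peak 111 bp upstream of the TSS, at the promoter with 6 GC boxes, and the E16.5 list had none there. Its nearest E16.5 peak lay 29580 bp upstream. The downstream side of Wnt7a held the same pair of sites at both stages. These lay 86423 and 88860 bp downstream at E13.5 and 86409 and 88757 bp downstream at the later stage, and were also assigned to Fbln2, whose TSS was farther away.

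The other ligand genes had distal peaks only. Wnt5a, a ligand known mainly for signalling that does not use beta-catenin, had 3 peaks at E13.5 and 5 at the later stage. Its peaks 414065 and 443933 bp downstream at E13.5 were matched at 414085 and 443970 bp, and both lay nearer to Lrtm1. The unmatched Wnt5a peaks lay 339499 bp upstream at E13.5, and 583763 and 471099 bp upstream and 195528 bp downstream at E16.5. The 2 upstream ones at E16.5 were nearer to Erc2. Wnt2 had 1 peak, 215076 bp downstream at E13.5 and 214965 bp downstream at the later stage, nearer to St7. Wnt5b had 1 peak, 278048 and 278045 bp upstream, which stood 2860 and 2863 bp from the TSS of Erc1, a gene for a presynaptic scaffold protein. Wnt7b, the close relative of Wnt7a, had a peak 89340 bp upstream at E16.5 only, nearer to Ppara. The 14 ligand genes with no peak in either list were Wnt1, Wnt2b, Wnt3, Wnt3a, Wnt4, Wnt6, Wnt8a, Wnt8b, Wnt9a, Wnt9b, Wnt10a, Wnt10b, Wnt11 and Wnt16.

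Of the 10 Frizzled receptor genes, the same 5 had peaks at both stages, against 16.3% of all genes. Of their 11 E13.5 peaks 10 were matched, against 57.9% of all peaks, and 6 of these pairs belong to Fzd1. Fzd2 and Fzd7 had promoter peaks in both lists. The Fzd2 peak lay 437 bp upstream at E13.5 and 360 bp upstream at the later stage, and was divided into 2 lettered entries in both lists. The Fzd7 peak lay 157 bp upstream at E13.5 and 2 bp downstream at the later stage. Fzd7 had a further peak 84633 bp upstream at E13.5 only. Fzd8 had 1 peak just outside the 1 kb limit, 1783 bp upstream at E13.5 and 1710 bp upstream at the later stage. The Fzd2, Fzd7 promoter and Fzd8 peaks were assigned to no other gene.

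Fzd1 had the most assigned peaks of the receptors. It had 6 peaks at each stage, none of them within 50 kb, and all 6 were matched. At E13.5 they lay 416996, 376455, 298028, 119891 and 109839 bp upstream and 72284 bp downstream. At E16.5 they lay 417054, 376346, 298049, 120002 and 109851 bp upstream and 72263 bp downstream. The 5 upstream peaks were also assigned to Cdk14, which encodes a kinase known to phosphorylate Lrp6, and the 2 farthest were nearer to Cdk14 than to Fzd1. At least 6 assigned peaks were found for 1.07% of all genes at E13.5 and 0.795% at the later stage. Fzd5 had a distal peak at both stages, 179324 and 179351 bp upstream, nearer to Plekhm3. A promoter peak of Fzd5, 62 bp downstream of the TSS, was in the E16.5 list only. Fzd3, Fzd4, Fzd6, Fzd9 and Fzd10 had no peak in either list.

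The co-receptor gene Lrp6 had 1 peak in each list, at different places. Its only E13.5 peak lay 70946 bp downstream, and its only E16.5 peak lay 204 bp upstream, at the promoter. Lrp5 had no peak. Of the 7 genes for R-spondins, secreted proteins that strengthen Wnt signalling, and their Lgr receptors, 3 had a peak at E13.5 and 2 at the later stage, against 20.7% and 23.6% of all genes. None had a promoter peak, against 4.93% and 9.42%. Lgr4 had a peak 42761 bp downstream at E13.5 that was matched at 42768 bp, and a second peak 35667 bp downstream at E16.5 only. Rspo3 had a matched peak 126100 and 126138 bp upstream, nearer to the predicted gene Gm10275. Lgr6 had a peak 78414 bp downstream at E13.5 only, nearer to Ube2t. Rspo1, Rspo2, Rspo4 and Lgr5 had none.

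Of the 8 genes for secreted inhibitors, 4 had a peak within 50 kb at E13.5 and 1 at the later stage, against 10.8% and 15.1% of all genes. None had a promoter peak, against 4.93% and 9.42% of all genes, shares at which few among 8 genes would have one. The counts within 50 kb rest on 1 peak for each gene, none closer than 25160 bp. Sfrp5, which encodes a Wnt-binding decoy, was the gene at both stages, with a peak 25219 bp upstream in the earlier list and 25160 bp upstream in the later one, slightly nearer to Golga7b. Sfrp1 had a peak 31464 bp upstream and Sfrp4 one 45626 bp downstream, both at E13.5 only. The Sfrp4 peak was nearer to Nme8. Dkk2, a ligand of the co-receptor Lrp6, had a matched peak 62003 and 62062 bp downstream. At E13.5 only, Dkk2 also had peaks 46778 bp downstream and 482217 bp upstream, the latter nearer to Papss1. Sfrp2 had a peak 312705 bp upstream at E16.5 only. Dkk1, Dkk3 and Dkk4 had none.

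Of the 7 genes for intracellular transducers, none had a promoter peak in the earlier list and 3 had one in the later list, against 4.93% and 9.42% of all genes, a share that was also higher in the later list. Ctnnb1, the gene of beta-catenin, had a matched peak 48434 bp upstream at E13.5 and 48305 bp upstream at the later stage. A promoter peak of Ctnnb1, 44 bp downstream of the TSS, was in the E16.5 list only. Apc, a scaffold of the destruction complex, had a peak 150565 bp upstream at E13.5, nearer to Epb4.1l4a, and one 34 bp downstream of its TSS at E16.5. Dvl3, which relays the signal from Frizzled receptors, had a peak 113 bp downstream of the TSS at E16.5 and none at the earlier stage.

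Dvl2 had a peak under its name in the later list alone, although the site itself was matched. The E16.5 list gave Dvl2 a peak 4979 bp upstream, just inside the 5000 bp limit, and the E13.5 list gave it none. The same E16.5 peak lay 161 bp upstream of Phf23. In the E13.5 list Phf23 had a peak 248 bp upstream, 87 bp from that position, which was not assigned to Dvl2. Axin2, both a transducer and a well-known target of the pathway, had a matched distal peak 91531 bp downstream at E13.5 and 91495 bp at the later stage. Axin1 and Dvl1 had no peak.

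Over all Wnt pathway genes, 5 had a promoter peak at E16.5 only (8.77%, 3.8 to 18.9) and 1 at E13.5 only (1.75%, 0.3 to 9.3). The shares over all protein-coding genes were 6.02% and 1.53%. The shares of the Wnt pathway genes were near these.

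Of the nuclear factors, Tcf7l2 had the most assigned peaks of any Wnt pathway gene, with 9 at E13.5 and 7 at the later stage. Tcf7l2 encodes the beta-catenin partner known for its part in thalamic development. No fewer peaks were assigned to 81 of the 21900 genes at E13.5 and to 120 at the later stage, Tcf7l2 included. None lay within 50 kb of its TSS. Upstream, in the direction of Vti1a, a gene for a vesicle fusion protein, matched peaks lay 372062 and 365422 bp away at E13.5 and 372045 and 365424 bp away at the later stage. These were nearer to Vti1a. Peaks 202363 and 163585 bp upstream at E13.5 and 198525 bp upstream at the later stage were unmatched.

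Downstream, Tcf7l2 had a group of 4 peaks within a short stretch at E13.5, at 154919, 167400, 170316 and 171955 bp. The first 3 were matched at 154952, 167418 and 170317 bp at E16.5, and the fourth was not. A peak 448484 bp downstream stood at the same distance in both lists. All downstream peaks were also assigned to Habp2, and the one at 448484 bp was nearer to it, at 96769 bp. In all 6 sites of Tcf7l2 were matched, as many as at Fzd1. These 2 genes held 12 of the 28 matched pairs.

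The related factors had few peaks, each at 1 stage. Tcf7l1, which mainly represses Wnt targets, had peaks 45542 and 72229 bp upstream at E13.5, the farther one nearer to Kcmf1, and none at the later stage. Tcf7 had a peak 78296 bp upstream at E16.5, which lay 13396 bp from the TSS of Vdac1, and none at E13.5. Lef1 had no peak in either list.

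**Figure D3:**
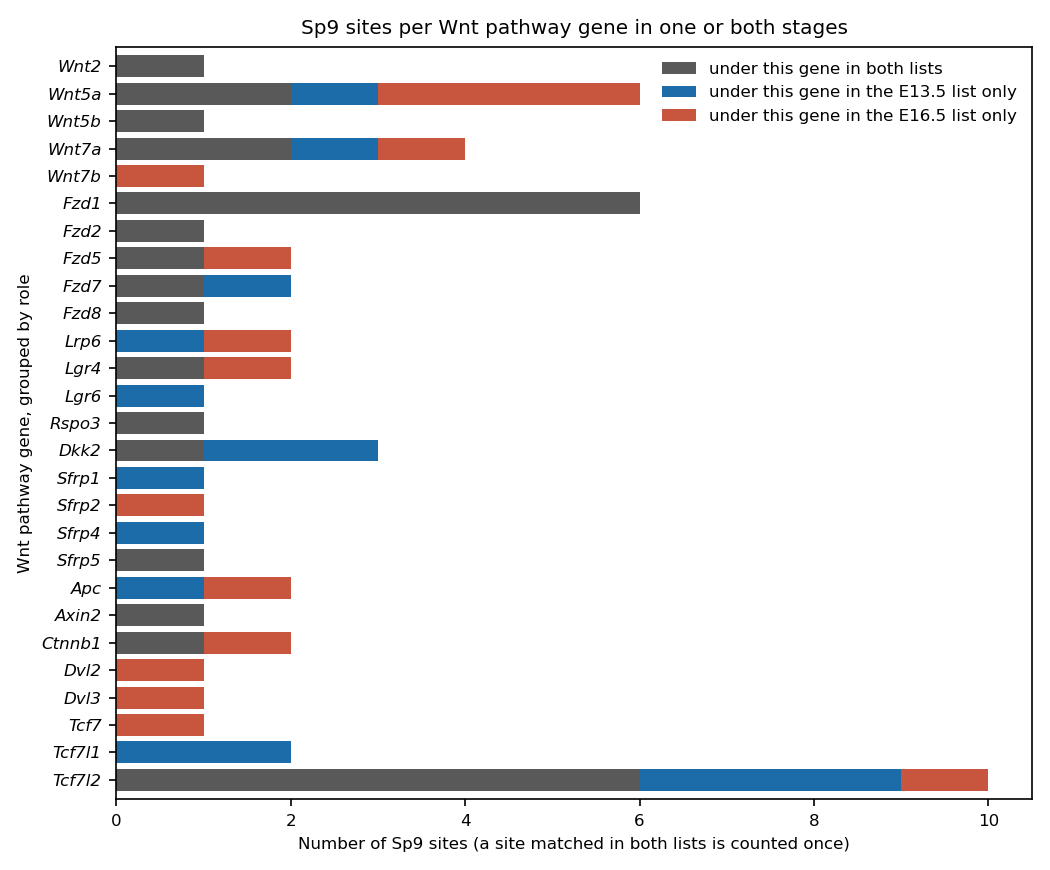
Number of Sp9 sites (x axis) assigned to each of the 27 Wnt pathway genes with a peak (rows, grouped by role), divided into sites under the gene in both lists (grey), in the E13.5 list only (blue) and in the E16.5 list only (red). Fzd1 has 6 grey sites and no others, Tcf7l2 has 6 grey sites and 4 others; the red site of Dvl2 is the one matched through Phf23.

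A further 52 genes of the pathway outside these families were listed by role. Of these, 23 had a peak at any distance at E13.5 and 24 at the later stage, against 20.7% and 23.6% of all genes. A peak within 50 kb was found for 15 at each stage, against 10.8% and 15.1%. Promoter peaks were found at 7 of the 52 at E13.5 and 8 at the later stage, against 4.93% and 9.42%. The nuclear co-factors that join beta-catenin to chromatin had peaks at 3 of 4 genes. Bcl9 had a peak 258 and 267 bp upstream and Pygo2 one 18 and 133 bp downstream. Bcl9l had one 211 bp upstream at E13.5, and at the later stage its only peak lay 20328 bp upstream. No peak was assigned to Znrf3 or Rnf43, the ubiquitin ligases that remove Frizzled receptors from the cell surface.

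Among intracellular regulators, Gsk3b, the kinase that marks beta-catenin for destruction, had promoter peaks at both stages. They lay 150 bp downstream at E13.5, and 383 bp upstream and 575 bp downstream at the later stage, none within 200 bp of another. Csnk1a1, the kinase that acts before Gsk3b, had a promoter peak 24 bp downstream at E16.5 only. Dact3 had one 7 bp downstream at E16.5 only. Apc2 had a matched peak 20502 and 20498 bp downstream, which lay nearer to 2310011J03Rik, at 4058 and 4062 bp. It also had one 3579 bp upstream at E16.5 that lay 55 bp from the TSS of Rps15, a ribosomal protein gene.

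Of the 13 genes for non-canonical receptors and planar polarity, 1 had a promoter peak in the earlier list and 2 in the later list, near the 4.93% and 9.42% of all genes. Vangl2 had one 28 bp downstream and Prickle1 one 31 bp upstream, both at E16.5 only, and Prickle1 had a matched peak 35395 and 35481 bp upstream. Daam1 had one 104 bp upstream at E13.5 only. Draxin, a secreted inhibitor that also guides axons, had a promoter peak at both stages, 91 and 16 bp upstream. Sp5, a pathway target of the same SP/KLF family as Sp9, had a promoter peak 54 bp upstream at E13.5 only.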

How the data were processed

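Sp9 ChIP libraries of basal ganglia from both stages were analysed. Per the labels' protocols, tissue was cross-linked and sheared to fragments of 200 to 1000 bp. The submitters' processing notes list MACS2 2.1.0, BWA 0.6.2, bcl2fastq 1.8.4, CASAVA 1.8.2 and the mm9 build, with no roles. How peaks were thresholded is not stated in these sources. Per the file headers, the authors gave each gene a domain reaching 5000 bp upstream and 1000 bp downstream of its TSS, which was extended by at most 1000000 bp, and they used curated domains. The deposited values are peak numbers with signed TSS distances, so depth was unknown.

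Lettered entries of one peak number (114 peaks in the earlier list, 163 in the later) were counted once. Of 4826 and 5463 listed names, 4698 and 5330 matched a gene table (GRCm38.p6, used for names and gene type). Promoter sequences came from RefSeq (GRCm38.p6), and 38 of the 57 genes matched. Genes absent from the authors' gene set, if any, could receive no peak. Matching was one to one, nearest first, and was tested on simulated data.

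The genes and lists were chosen with earlier results of these data known. Every gene with a peak within 50 kb was named with those peaks, others with their nearest. Genes of the wider list were named for a promoter peak or at least 2 peaks within 50 kb. Znrf3, Rnf43 and farther peaks were named after their values were seen, and the motifs were chosen then too. Alternatives were other windows, promoter and matching limits, nearest TSS, matching without synonyms and counting entries or pairs. Software was matplotlib 3.10.9, numpy 2.4.6, scipy 1.17.1 and Python 3.11.15.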

Additional observations from a re-analysis of the deposited data

How the results depend on the processing

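Of 28 alternatives, 25 left the count of Wnt pathway genes within 1.5 times its value, or the share of matched peaks within its interval. The other 3 concerned E13.5. Genes with an assigned peak fell from 22 to 14 when a peak counted only for its nearest listed TSS. Genes with a peak within 50 kb fell from 11 to 4, both within 10 kb and in the basal window of 5 kb upstream and 1 kb downstream, as these windows take in fewer peaks. The share of matched peaks was lowest with a limit of 100 bp, at 51.2% for E13.5 and 53.5% for E16.5. A stricter peak threshold was not run because the lists hold no scores. No paired analysis was possible because each stage had 1 library and the labels give no replicate numbers.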

Other observations

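Several other pathway genes had several assigned peaks, most of them distal, and were chosen here after their values were seen. Csnk1g3, which encodes a casein kinase, had 13 peaks at E13.5 and 10 at the later stage, the nearest 231525 and 99528 bp downstream. All 13 of the E13.5 peaks were also assigned to Zfp608, as were the E16.5 peaks except the one at 99528 bp. The Csnk1g3 peaks from 590934 bp outward at E13.5 and from 590997 bp outward at E16.5 lay nearer to Zfp608. Sp5 had 7 peaks at E13.5 and 4 at the later stage. Those 347070, 306106 and 272285 bp upstream at E13.5 were matched at 347102, 306120 and 272320 bp, and all 3 lay nearer to Myo3b. Myc, a growth-promoting target of the pathway, had 2 peaks at each stage, none closer than 292413 bp and none matched.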
